A study of Mus musculus with 17 samples.

Results

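This account covers 42 mouse genes of the endoplasmic reticulum (ER) chaperone system and the unfolded protein response, out of 18193 genes measured in the hippocampus. The genes were chosen by name, with earlier results of these data known. All 42 were measured: 96 probe sets carried a symbol of this list and no other. A probe set is a group of short oligonucleotides on the array whose signals are combined into 1 value. Each gene was read through its brightest probe set, by the mean of 17 arrays, and the 54 further probe sets served as a check. By role, 20 genes encode chaperones and folding factors, 2 the channel through which proteins enter the ER, 9 the machinery of ER-associated degradation, 3 stress sensors and the transcription factors of their branches, and 8 the arm of the transcription factor ATF4.

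The sleep-deprived group was 8 male C57BL/6J mice kept awake for 5 h in the home cage by gentle handling, and the controls were 9 such mice left undisturbed in their home cages. All 17 animals had been handled daily for 6 days and were labelled as 2 months old, within a protocol range of 2 to 4 months. Each Affymetrix array held RNA from the dissected hippocampus of 1 mouse. No group was handled during the 5 h without losing sleep, so sleep loss and the handling that caused it cannot be told apart. In dissected tissue a smaller number of cells of a type cannot be told apart from less RNA per cell.

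There were 5 arrays that stood apart by a transcript of a neighbouring tissue. Transthyretin (Ttr), the most abundant transcript of the choroid plexus, a tissue that borders the hippocampus, lay between 13.84 and 14.27 on the log2 scale in 3 sleep-deprived and 2 undisturbed arrays. In the other 12 it lay between 7.12 and 12.12. All 8 choroid plexus markers had positive differences (0.16 to 0.51) and none passed the test. Their summed signal covered 9.34 to 14.35 in sleep-deprived and 9.61 to 14.16 in undisturbed arrays. Neuronal, interneuron, glial, microglial and endothelial markers were all present, and none of the 31 measured ones passed. The 5 markers of blood and of thalamus or cortex also all had positive differences (0.06 to 0.18), and none passed. Their summed signal covered 8.81 to 8.99 in sleep-deprived and 8.67 to 8.90 in undisturbed arrays. The gap between 3' and 5' probe sets of control transcripts (3' minus 5'), a measure of RNA integrity, was 0.42 in sleep-deprived replicate 5 and 0.20 to 0.30 in the other 16 arrays. Array medians lay between 6.13 and 6.22.

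Proteins that enter the ER are folded there by chaperones of the HSP70 and HSP90 families, lectins that bind their sugars and oxidoreductases that form disulfide bonds. When unfolded proteins accumulate, the sensors IRE1 (gene Ern1), ATF6 and PERK (gene Eif2ak3) start the unfolded protein response: IRE1 splices the mRNA of the transcription factor XBP1, ATF6 is cut free to enter the nucleus, and PERK slows translation while favouring the synthesis of ATF4. ATF6 and XBP1 activate chaperone and degradation genes through the ER stress element of their promoters, and ATF4 activates genes of amino acid metabolism and cell death. In the brain of mice, Hspa5 and related chaperones are known to respond to prolonged wakefulness.

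The ER stress element is CCAAT followed, after 9 bases of any kind, by CCACG. It was searched on both strands in windows of 250 bases before to 50 bases after the gene start (RefSeq promoter table, build GRCm38.p6), which held 35 of the 42 genes. Of all 32851 windows 39 held it, or 0.119%, and these belonged to 37 genes. Of these 37 genes, 10 were on the list studied here. Their elements are shown 5′ to 3′ on the element's own strand, with the fixed bases in capitals. Of these 10 carriers 4 were higher after sleep deprivation and 6 did not pass.
Hspa5: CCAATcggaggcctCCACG
Creld2: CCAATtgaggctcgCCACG
Pdia6: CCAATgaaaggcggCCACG
Calr: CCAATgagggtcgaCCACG
Dnajc3: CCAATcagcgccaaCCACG
Derl3: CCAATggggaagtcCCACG
Hsp90b1, far: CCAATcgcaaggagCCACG
Hsp90b1, near: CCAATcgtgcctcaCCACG
Ero1b: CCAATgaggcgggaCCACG
Canx: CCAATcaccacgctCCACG
Syvn1: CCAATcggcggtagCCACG

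The element is shown in place below for the 4 genes that hold it and that were higher after sleep deprivation. Each run is the 250 bases before the gene start, read on the gene's strand, with the fixed bases of the element in capitals. Where the element lies on the opposite strand it reads CGTGG, then 9 bases, then ATTGG.
Hspa5, chr2:34771840-34772089, plus strand: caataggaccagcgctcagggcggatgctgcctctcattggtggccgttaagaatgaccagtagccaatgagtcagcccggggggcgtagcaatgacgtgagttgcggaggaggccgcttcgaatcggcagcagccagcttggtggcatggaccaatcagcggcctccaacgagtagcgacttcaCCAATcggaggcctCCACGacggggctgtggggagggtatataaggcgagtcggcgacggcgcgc
Creld2, chr15:88819396-88819645, plus strand: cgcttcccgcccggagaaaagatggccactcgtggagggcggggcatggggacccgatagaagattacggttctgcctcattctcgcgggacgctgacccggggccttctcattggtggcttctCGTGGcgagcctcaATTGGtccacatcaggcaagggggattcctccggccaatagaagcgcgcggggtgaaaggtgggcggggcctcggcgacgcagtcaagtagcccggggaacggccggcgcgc
Pdia6, chr12:17266339-17266588, plus strand: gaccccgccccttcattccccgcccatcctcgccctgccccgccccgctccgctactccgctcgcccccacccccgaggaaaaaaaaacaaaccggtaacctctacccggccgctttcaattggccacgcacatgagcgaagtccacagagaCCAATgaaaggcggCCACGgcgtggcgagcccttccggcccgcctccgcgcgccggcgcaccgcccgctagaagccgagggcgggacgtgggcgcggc
Calr, chr8:84846932-84847181, minus strand: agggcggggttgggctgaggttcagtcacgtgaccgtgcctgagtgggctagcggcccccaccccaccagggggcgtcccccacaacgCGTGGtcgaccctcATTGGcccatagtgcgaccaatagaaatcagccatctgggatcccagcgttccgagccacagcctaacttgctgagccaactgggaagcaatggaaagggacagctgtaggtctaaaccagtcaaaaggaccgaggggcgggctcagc

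Counted from the gene start, the element occupied positions -65 to -47 in Hspa5, -126 to -108 in Creld2, -98 to -80 in Pdia6 and -162 to -144 in Calr. It ran with the gene in Hspa5 and Pdia6 and against it in Creld2 and Calr. Of the 6 genes that were higher after sleep deprivation, 5 had a window in the table, and 4 of these 5 held the element. The window of Xbp1 held none of the motifs searched. Among the 6 carriers that did not pass the test were Hsp90b1, with elements at -212 to -194 and -107 to -89, and Syvn1, with 1 at -44 to -26. The 27 carriers outside the list included 10 genes tested on the array. None of these 10 passed limma's test, and 1 had an unadjusted p under 0.05.

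**Figure D1:**
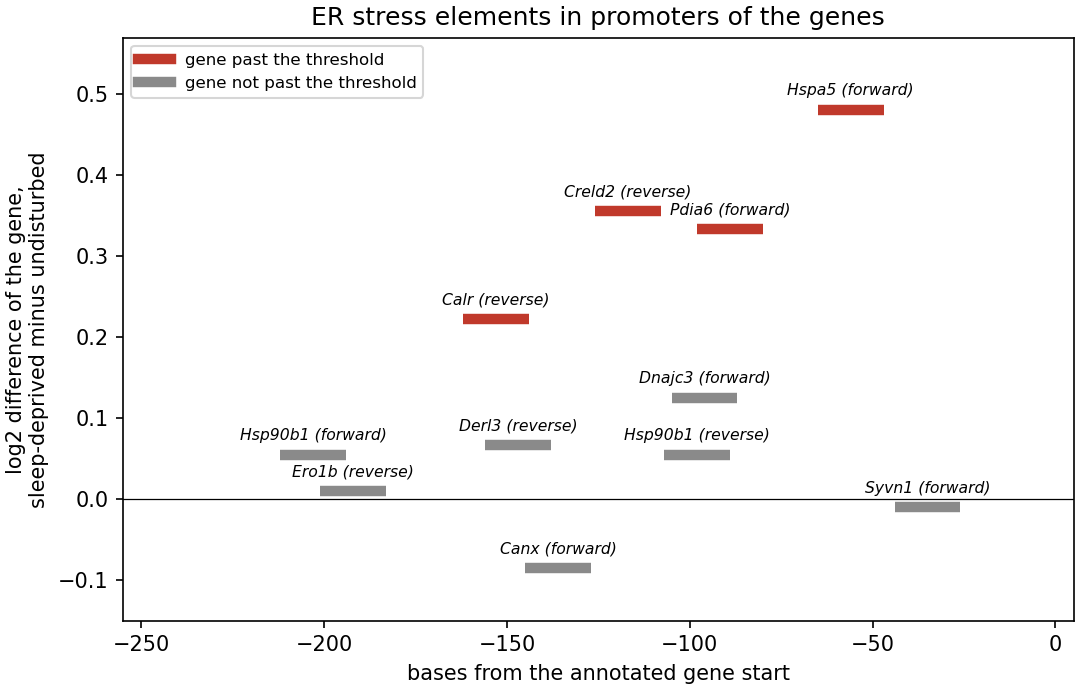
Position of each ER stress element in bases from the annotated gene start (horizontal) against the log2 difference of its gene, sleep-deprived minus undisturbed (vertical). Red bars are genes past the threshold and grey bars are genes that were not; forward and reverse give the strand relative to the gene. The 4 red genes lie between 0.22 and 0.48, and the grey ones between -0.08 and 0.13.

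Another 3 motifs were searched in the same windows. The second form of the element, ATTGG followed after 1 base by CCACG, was in 0.0365% of all windows and in 2 of the 35, those of Herpud1 (positions -52 to -42) and Dnajb11 (8 to 18, past the start). TGACGTGG, an element bound by XBP1, was in 0.676% of all windows and in 0 of the 35. TGATGNAA, bound by ATF4 with C/EBP factors, was in 3.97% of all windows and in 5 of the 35: Asns, Atf3, Chac1, Trib3 and Herpud1. None of these 5 genes passed the test of expression. No matches overlapped in the windows of the list. A match in a window is a description of its letters and not evidence that a factor binds there.

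After sleep deprivation 6 of the 42 genes were higher and 0 were lower, at an adjusted p under 0.05 (limma, adjusted over all 18193 genes). The 6 were Hspa5, Manf, Creld2, Pdia6 and Calr among the chaperones, and Xbp1. Over all genes 1.25% were called higher and 2.73% lower. At an unadjusted p under 0.05, 10 of the 42 were higher and 4 lower, where 7.65% of all genes were higher and 10.9% lower, so the lower count was near that of all genes. The median difference of the 42 was 0.047 on the log2 scale, and that of all genes was 0.0016. In 3 of the 42 genes every sleep-deprived array lay above every undisturbed one, as it did in 0.176% of all genes. Because the list was chosen with earlier results of these data known, these shares describe it and do not test it.

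Of the 20 chaperones and folding factors 5 rose, 0 fell and 15 did not pass, with a median difference of 0.11. At an unadjusted p under 0.05, 8 of the 20 were higher and 2 lower, the lower count near the 10.9% of all genes. The exact rank-sum test also called 0 lower.

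Hspa5 encodes BiP, the HSP70 chaperone of the ER lumen, which also holds the sensors inactive until unfolded proteins draw it away. Its log2 signal had a lowest, median and highest value of 11.04, 11.27 and 11.44 in sleep-deprived mice, against 10.61, 10.77 and 11.02 in undisturbed mice. The groups did not overlap. The difference was 0.48 (SE 0.060, 1.40-fold, adjusted p = 0.00015), far above the spread within either group (SD 0.13 in both).

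Creld2, a cysteine-rich protein of the ER lumen and a known target of ATF6, ran over 7.76, 7.92 and 8.13 in sleep-deprived mice and 7.47, 7.60 and 7.73 in undisturbed mice. Again no array of one group lay within the range of the other, and the difference was 0.36 (SE 0.052, 1.28-fold, adjusted p = 0.00042). Pdia6, a protein disulfide isomerase that dampens IRE1 and PERK signalling, ran over 10.17, 10.33 and 10.59 in sleep-deprived mice and 9.90, 10.005 and 10.16 in undisturbed mice. Its groups were separate by a narrow margin, and it rose by 0.33 (SE 0.059, 1.26-fold, adjusted p = 0.0024).

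Manf encodes a small ER-resident protein that binds BiP and, when secreted, protects neurons. Its values were 10.02, 10.37 and 10.46 in sleep-deprived mice and 9.50, 9.97 and 10.10 in undisturbed mice. In Manf 7 of the 8 sleep-deprived arrays lay above every undisturbed array, and the difference was 0.39 (SE 0.076, 1.31-fold, adjusted p = 0.0055). Calr encodes calreticulin, a lectin chaperone that also stores calcium. It lay at 12.05, 12.29 and 12.44 in sleep-deprived mice and at 11.93, 12.00 and 12.22 in undisturbed mice. Here the groups overlapped, with 5 of 8 sleep-deprived arrays above all undisturbed ones, and the call was narrow (0.22, SE 0.057, 1.17-fold, adjusted p = 0.031). The call of Calr was lost without any 1 of 7 arrays (sleep-deprived replicates 1, 3 and 7 and undisturbed replicates 3, 7, 8 and 9; adjusted p up to 0.067).

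Sleep-deprived replicate 2 had the lowest value of its group for all 6 genes that passed. Its Ttr signal was 9.42, within the range of the 12 arrays with less Ttr. Among sleep-deprived arrays the mean of the 3 with high Ttr was above that of the 5 others for all 6 genes, for example 11.33 against 11.22 for Hspa5 and 10.42 against 10.26 for Manf. Among undisturbed arrays the 2 with high Ttr had the higher mean for each of these genes but Calr (12.02 against 12.08). The part of Ttr-rich tissue in these values was not tested beyond the fits without those arrays and with a marker covariate, given at the end.

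**Figure D2:**
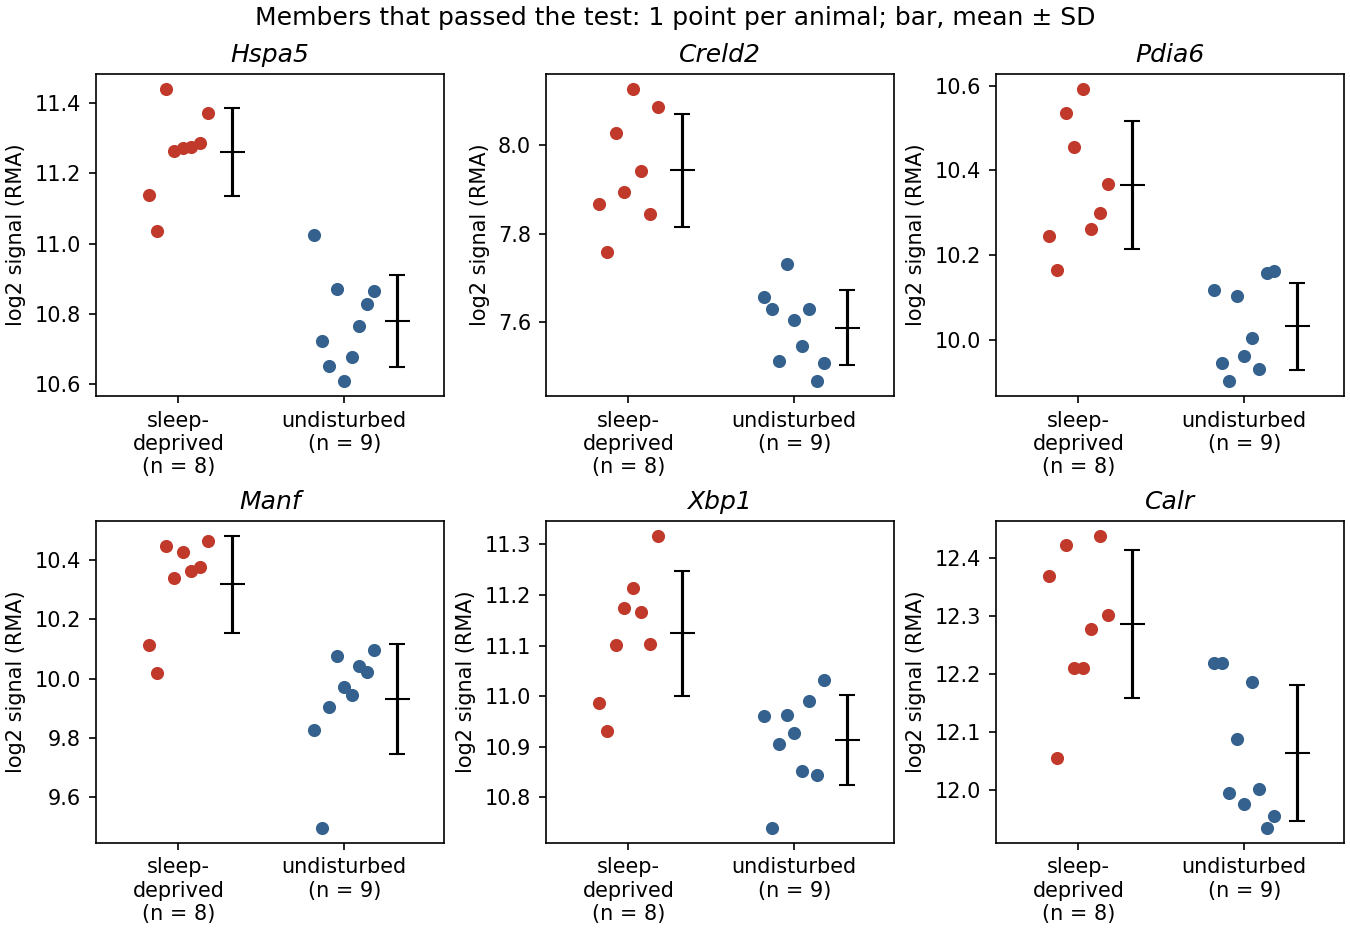
Log2 signal (vertical) of the 6 genes past the threshold in each animal, sleep-deprived in red at the left of each panel and undisturbed in blue at the right; the bars beside the points are the mean ± SD, and each panel has its own vertical range. The groups are separate for Hspa5, Creld2 and Pdia6 and overlap for Manf, Xbp1 and Calr.

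The J-domain cochaperones and nucleotide exchange factors of BiP did not pass. Among the cochaperones, Dnajb11 was at 0.14 (adjusted p = 0.11), Dnajc3 at 0.13 (adjusted p = 0.28), Dnajb9 at -0.05 (adjusted p = 0.66) and Dnajc10 at -0.08 (adjusted p = 0.23). Of the exchange factors, Hyou1 was at 0.15 (adjusted p = 0.15) and Sil1 at -0.13 (adjusted p = 0.17), and all 8 sleep-deprived arrays of Sil1 lay below its undisturbed mean. Dnajb11 and Hyou1 passed after quantile normalization (adjusted p = 0.047 and 0.040) and after cyclic loess (adjusted p = 0.038 and 0.041). Sdf2l1, which joins Dnajb11 in chaperone complexes, ran over 6.48, 6.74 and 7.07 in sleep-deprived mice and 6.39, 6.62 and 6.78 in undisturbed mice. Only 2 of its 8 sleep-deprived arrays lay above all undisturbed ones, and its difference of 0.15 (adjusted p = 0.25) was within the spread of its animals.

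Hsp90b1 encodes GRP94, the HSP90 chaperone of the ER, and its promoter holds 2 of the elements printed above. Its difference was 0.06 (adjusted p = 0.63), with a 95% interval of -0.06 to 0.17. A second, slightly dimmer probe set was at 0.18, outside that interval, and did not pass (adjusted p = 0.12 among all probe sets). Both values were below the 0.48 of Hspa5, but the gap between the 2 genes was not tested. Of the lectin pathway, Canx, which encodes the membrane lectin calnexin, was at -0.08 (adjusted p = 0.39) while the oxidoreductase gene Pdia3, whose product works with both lectins, was at 0.09 (adjusted p = 0.48). The disulfide isomerase genes P4hb, Pdia4 and Pdia5 were at 0.03, 0.13 and 0.04, the oxidase gene Ero1b at 0.01 and Creld1, a membrane-anchored relative of Creld2, at 0.09. None of these 5 passed (adjusted p of 0.33 to 0.93). Pdia4, Pdia5 and Sdf2l1 had mean signals of 6.07 to 6.67, below the median gene (7.38).

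Neither channel gene passed. Sec61b and Sec61a1, subunits of the channel that carries nascent proteins into the ER, were at -0.05 and -0.03 (adjusted p = 0.59 and 0.77). Sec61b ran over 10.12, 10.28 and 10.30 in sleep-deprived mice and 10.15, 10.28 and 10.38 in undisturbed mice. Sec61a1 ran over 9.74, 9.83 and 9.98 in sleep-deprived mice and 9.77, 9.84 and 10.08 in undisturbed mice, and in both genes the groups overlapped almost entirely. The 5 dimmer probe sets of Sec61a1 were all positive, at 0.0018 to 0.13, and none passed.

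Of the 9 genes of ER-associated degradation, which sends misfolded proteins back to the cytosol for the proteasome, 0 rose and 0 fell in limma's test, and 0 also in the exact rank-sum test. Of the 9, Derl1 alone had an unadjusted p under 0.05, and the differences ran from -0.12 to 0.08 with a median of -0.0096. Derl1, a derlin of the exit channel, lay at 10.44, 10.64 and 10.89 in sleep-deprived mice, against 10.73, 10.77 and 10.83 in undisturbed mice. There were 6 sleep-deprived arrays below and 2 above the whole undisturbed range, and the spread was wider after sleep deprivation (SD 0.15 against 0.032, not tested). Its difference was -0.12 (SE 0.052, adjusted p = 0.23). The 3 dimmer Derl1 probe sets were at 0.05, -0.07 and 0.09, so they did not share 1 direction.

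Edem2 and Edem1, whose products trim the sugars of misfolded glycoproteins, did not pass at -0.08 and -0.06 (adjusted p = 0.40 and 0.44). Edem2 lay at 8.20, 8.27 and 8.41 in sleep-deprived mice and at 8.29, 8.31 and 8.52 in undisturbed mice. Edem1 lay at 7.96, 8.10 and 8.14 in sleep-deprived mice and at 8.04, 8.15 and 8.20 in undisturbed mice, with all 8 sleep-deprived arrays below the undisturbed mean. Herpud1, a membrane protein of the degradation complex and in many cells one of the most responsive genes of ER stress, had 9.67, 9.77 and 9.93 in sleep-deprived mice and 9.68, 9.73 and 9.80 in undisturbed mice. Its difference of 0.03 had a 95% interval of -0.05 to 0.12 (adjusted p = 0.69). A second Herpud1 probe set of similar mean signal (9.43, against 9.76) was at 0.13, outside that interval, and did not pass (adjusted p = 0.22 among all probe sets). The ubiquitin ligase gene Syvn1 and its adaptor Sel1l were at -0.01 and 0.08, the derlin genes Derl2 and Derl3 at -0.01 and 0.07, and the selenoprotein gene Selenos at -0.04. None of these 5 passed (adjusted p of 0.46 to 0.96). A second Derl2 probe set of similar mean signal (8.13, against 8.53) was at 0.13, outside the 95% interval of the first (-0.10 to 0.09). All 8 of its sleep-deprived arrays lay above its undisturbed mean, and it did not pass (adjusted p = 0.15 among all probe sets). Derl3 had a mean signal of 6.42, below the median gene (7.38).

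Xbp1 was the 1 gene of the 3 sensors and branch transcription factors that passed. Its signal ran over 10.93, 11.13 and 11.32 in sleep-deprived mice and 10.74, 10.93 and 11.03 in undisturbed mice. In Xbp1 6 of 8 sleep-deprived arrays lay above every undisturbed one, and the difference was 0.21 (SE 0.052, 1.16-fold, adjusted p = 0.024). Without sleep-deprived replicate 5, the array with the highest 3' minus 5' signal, its adjusted p was 0.051. That array was also one of those high in Ttr (14.21). With the 3' minus 5' signal as a covariate Xbp1 kept its call. The array reads total Xbp1, and the files do not say whether any probe set separates the spliced form.

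The sensor genes themselves did not pass. Atf6 ran over 9.48, 9.53 and 9.69 in sleep-deprived mice and 9.38, 9.53 and 9.59 in undisturbed mice (0.06, adjusted p = 0.49). Ern1 ran over 7.59, 7.87 and 7.99 in sleep-deprived mice and 7.70, 7.86 and 8.12 in undisturbed mice (-0.05, adjusted p = 0.66). For both genes the groups overlapped, and the activity of their proteins, which is set by cleavage and phosphorylation, is not measured by the array.

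None of the 8 genes of the ATF4 arm passed in either direction in limma's test or in the exact rank-sum test. Of these, 2 had an unadjusted p under 0.05, Atf4 on the higher side and Asns on the lower, a share near the 18.6% of all genes. Atf4, the transcription factor of the arm, had 11.12, 11.18 and 11.26 in sleep-deprived mice and 11.00, 11.06 and 11.24 in undisturbed mice. All 8 sleep-deprived arrays were above the undisturbed mean and 1 was above all undisturbed arrays (0.11, SE 0.040, adjusted p = 0.14). It passed after cyclic loess (0.15, adjusted p = 0.049). The 2 dimmer Atf4 probe sets, with mean signals of 7.62 and 5.95, were at 0.0087 and 0.0091. Neither passed (adjusted p = 0.98 and 0.97 among all probe sets). Asns, an asparagine synthetase and a textbook ATF4 target, had 10.74, 10.85 and 10.98 in sleep-deprived mice and 10.86, 10.94 and 11.05 in undisturbed mice. In Asns 5 sleep-deprived arrays were below all undisturbed ones, and the difference was -0.09 (SE 0.040, adjusted p = 0.20). A second Asns probe set, with a mean signal of 9.94, was at -0.18 and did not pass (adjusted p = 0.084 among all probe sets).

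The stress-induced factors downstream of ATF4 did not pass. Ddit3, which encodes the pro-apoptotic factor CHOP, had 8.57, 8.65 and 8.87 in sleep-deprived mice and 8.47, 8.63 and 8.76 in undisturbed mice. Its difference was 0.06, with a 95% interval of -0.05 to 0.17 (adjusted p = 0.54). Trib3, a pseudokinase induced by CHOP, had 6.36, 6.52 and 6.76 in sleep-deprived mice and 6.21, 6.44 and 6.67 in undisturbed mice (0.12, adjusted p = 0.31). The groups of Ddit3 and Trib3 overlapped over most of their range. Trib3 had a mean signal of 6.46, below the median gene (7.38). Atf3, a transcription factor of many stress responses, was near the low end of the array's signal, at 5.14, 5.20 and 5.35 in sleep-deprived mice and 5.04, 5.12 and 5.29 in undisturbed mice (0.08, adjusted p = 0.35). Chac1, a glutathione-degrading enzyme gene, was at -0.01 (adjusted p = 0.96). Ppp1r15a and Ppp1r15b, which encode the stress-induced and the constitutive subunits that reverse PERK's action on translation, were at -0.03 and 0.03 (adjusted p = 0.76 and 0.71).

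**Figure D3:**
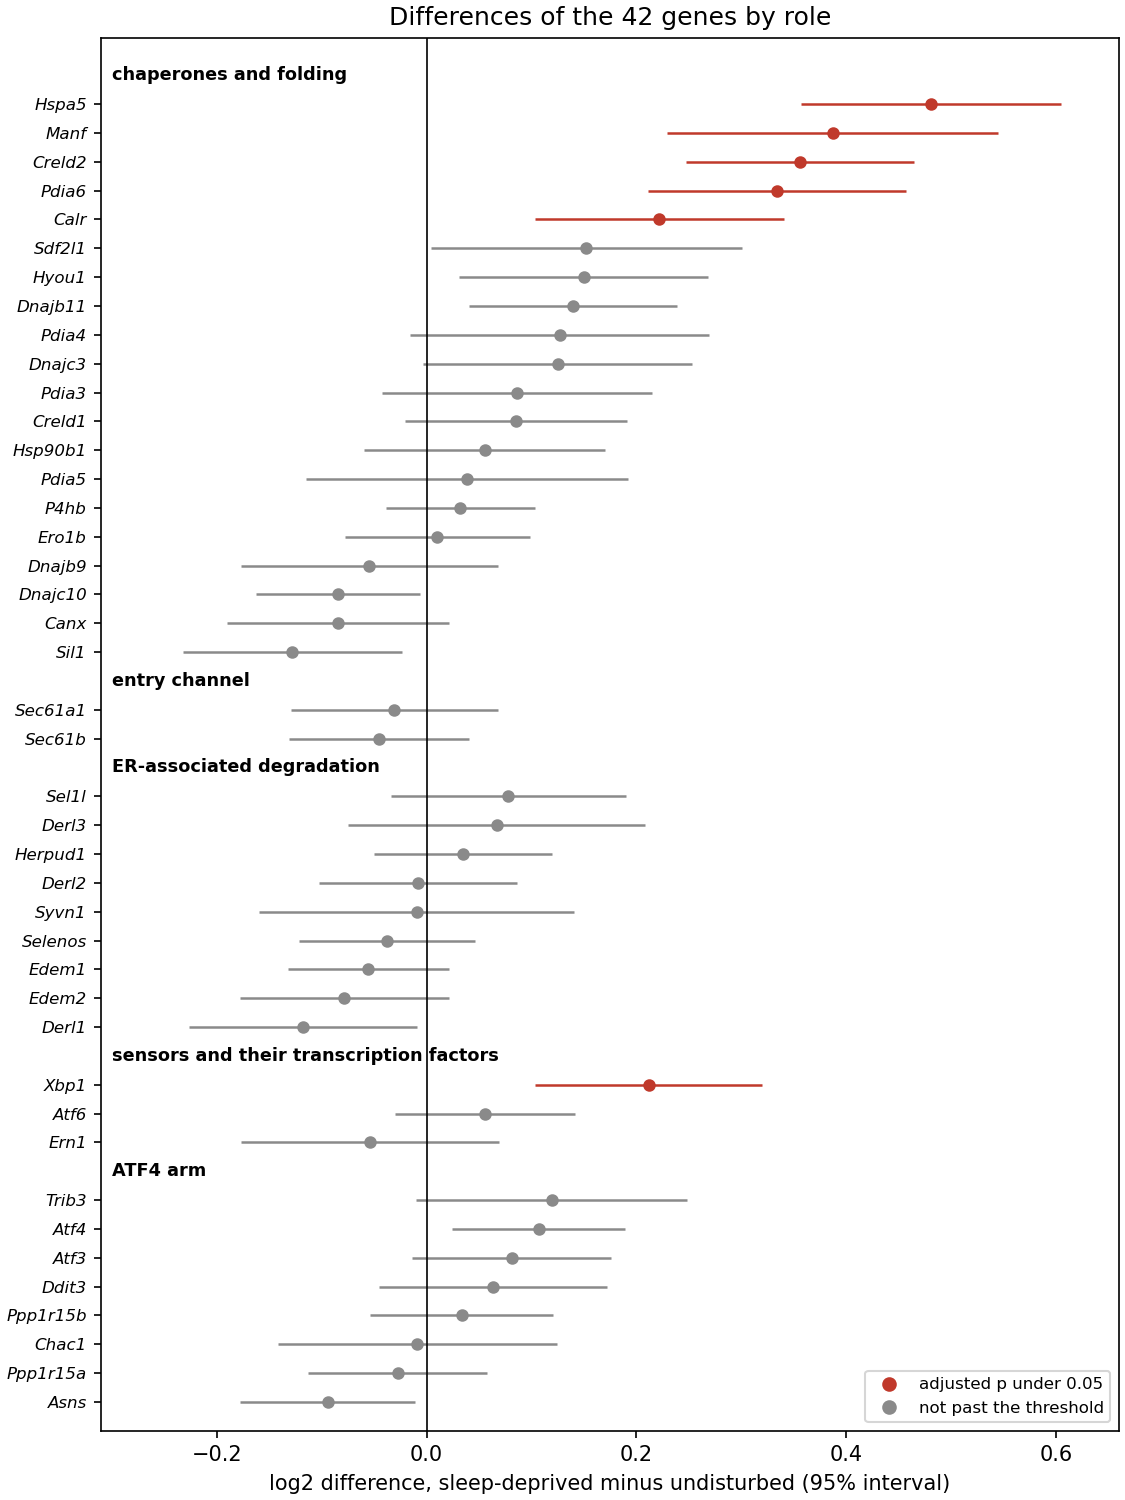
Log2 difference of the 42 genes, sleep-deprived minus undisturbed, with 95% intervals (horizontal), grouped by role. The 6 genes past the threshold, in red, lie between 0.21 and 0.48, and the grey ones between -0.13 and 0.15.

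Chaperone genes held 5 of the 6 calls, but whether the roles differ from each other was not tested. Among the 6, the difference of Hspa5 was the largest at 0.48 and that of Xbp1 the smallest at 0.21. In the 8 sleep-deprived arrays 21 to 34 of the 42 genes lay above their undisturbed mean, and in the 9 undisturbed arrays 12 to 31 did.

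Further probe sets were available for 28 of the 42 genes. Of all 96 probe sets 10 were higher and 0 lower after adjustment over the 45037 tested, of which 0.584% were higher. The second probe set of Hspa5 rose by 0.43 (adjusted p = 0.0027 among all probe sets), while the third, the dimmest, was at 0.12 (adjusted p over all probe sets = 0.39). The third differed from the brightest by -0.36 and narrowly missed the threshold (adjusted p of the difference = 0.051). The 3 probe sets of Calr were at 0.22, 0.21 and 0.22, and among all probe sets tested the 2 dimmer ones passed (adjusted p = 0.035 and 0.025) while the brightest did not (adjusted p = 0.053). Of 4 Xbp1 probe sets 3 were at 0.21, 0.30 and 0.22 and the dimmest was at -0.0065. The second probe set of Pdia6, with a mean signal of 5.34, was at 0.10 without passing.

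Dnajc3, whose brightest probe set did not pass, had 5 probe sets with differences of 0.09 to 0.21, of which 1 passed (0.19, adjusted p over all probe sets = 0.047). Hsp90b1 had a second, slightly dimmer probe set at 0.18 (adjusted p over all probe sets = 0.12), against 0.06 for the first. All 4 dimmer probe sets of Ern1 were positive, at 0.07 to 0.15, where the brightest was negative, and none passed. Of the 54 further probe sets 0 differed from the brightest of their gene after adjustment over 16752 such pairs, of which 217 did. Manf, Creld2 and 12 other genes of the list had a single probe set, so their values have no such check.

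**Figure D4:**
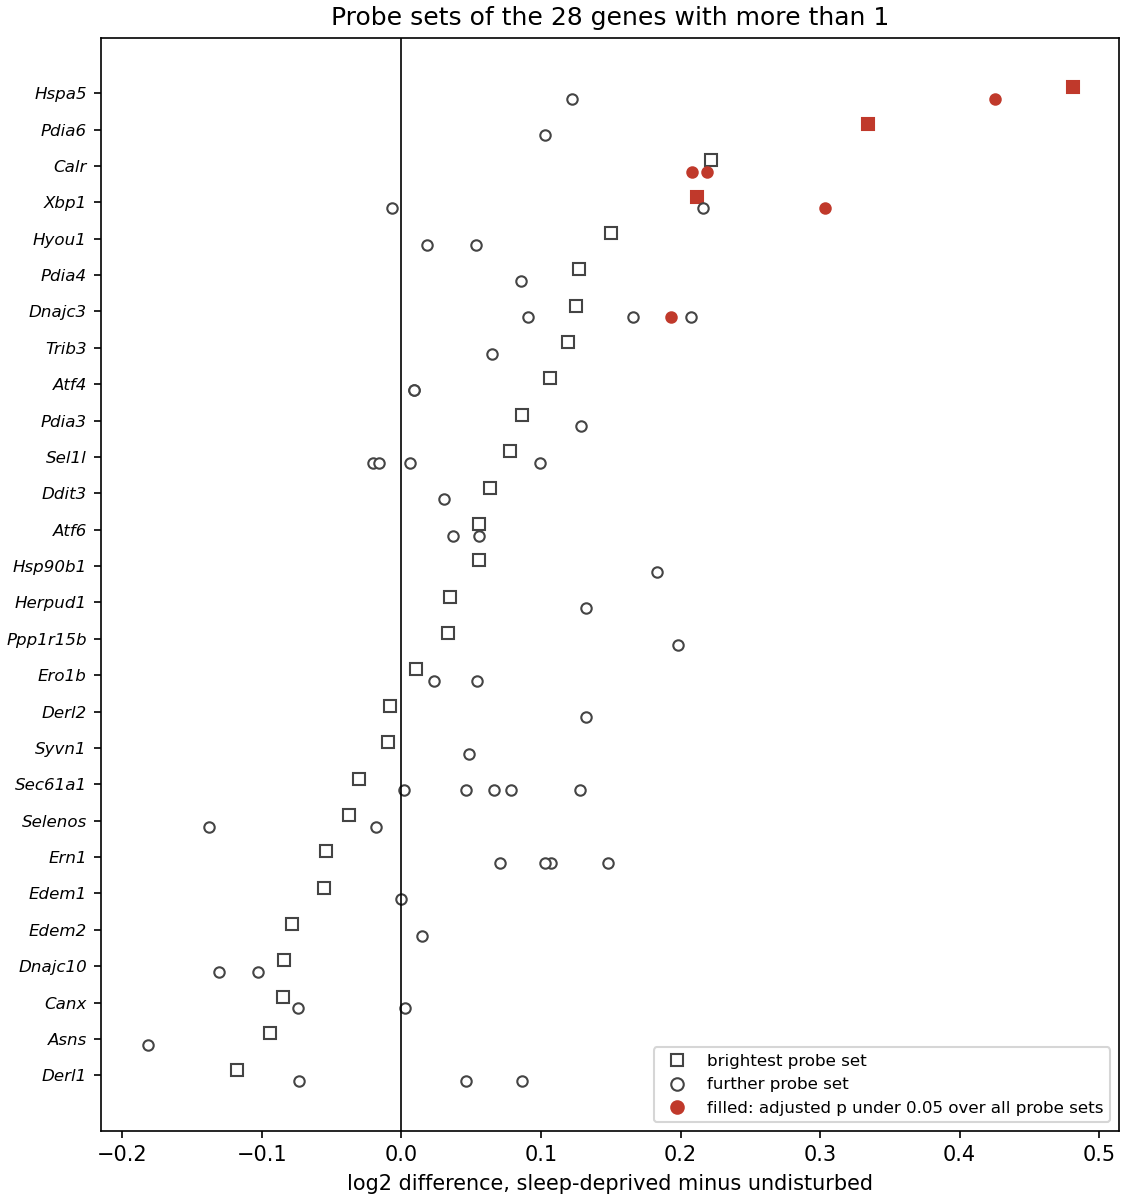
Log2 difference, sleep-deprived minus undisturbed, of each probe set of the 28 genes that have several (horizontal); squares are the brightest probe set of a gene and circles the further ones, and filled red marks passed after adjustment for every probe set tested. Hspa5 has 2 filled marks above 0.42 and 1 open mark at 0.12, and all 3 marks of Calr lie near 0.2.

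Within a group of animals, Hspa5 was compared with 9 other chaperone genes, 18 correlations in all. Among the 8 sleep-deprived animals Manf followed Hspa5 closely (Pearson r = 0.94, exact permutation p = 0.00069, adjusted p = 0.0125; Spearman rho = 0.90, exact permutation p = 0.0046, adjusted p = 0.082). Without the 2 animals farthest from the median of Hspa5 r was again 0.94. Among the 9 undisturbed animals r was 0.13 (exact permutation p = 0.74; rho = 0.30, exact permutation p = 0.44), and 0.52 without the 2 farthest animals. The difference between the groups was not tested. The arrays with high and low Ttr were too few (3 and 5 sleep-deprived) for a value within each.

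The other 17 correlations did not pass after adjustment. Pdia6 followed Hspa5 with r = 0.76 in undisturbed animals (exact permutation p = 0.019, adjusted p = 0.17; rho = 0.67, exact permutation p = 0.059) and r = 0.68 in sleep-deprived animals (exact permutation p = 0.060; rho = 0.55, exact permutation p = 0.17). Without the 2 farthest animals, which narrows the range of Hspa5, the correlation with Pdia6 was 0.29 in sleep-deprived and 0.84 in undisturbed animals. In sleep-deprived animals Creld2 had r = 0.72 (exact permutation p = 0.039, adjusted p = 0.21) and Hsp90b1 r = 0.70 (exact permutation p = 0.054, adjusted p = 0.21).

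**Figure D5:**
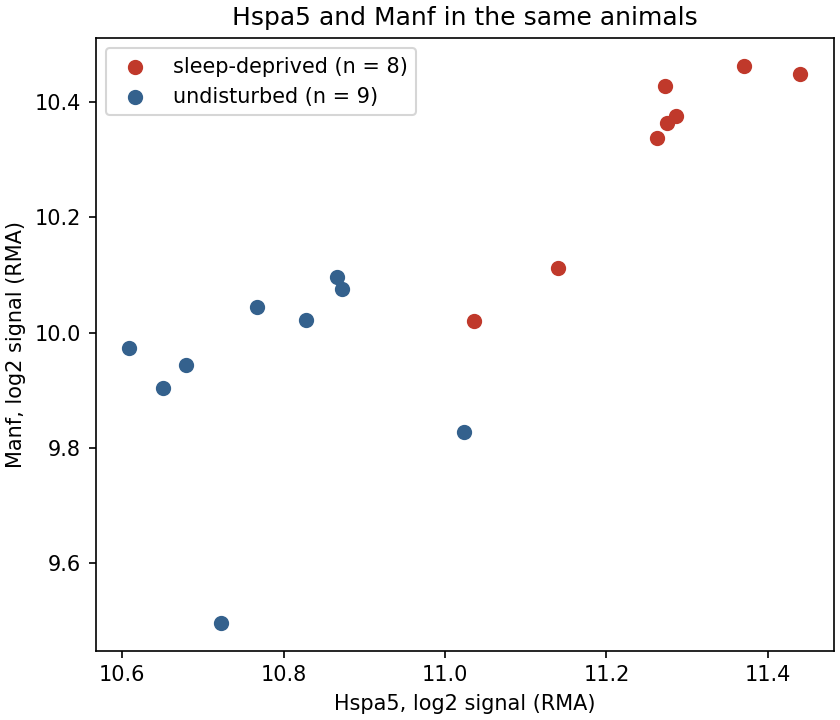
Log2 signal of Hspa5 (horizontal) and Manf (vertical) in the same animal, sleep-deprived in red and undisturbed in blue. The 8 red points lie close to a line (r = 0.94) and the 9 blue points do not (r = 0.13), with 1 undisturbed animal at 9.50 for Manf.

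Another 162 genes of the same pathways were listed, of which 152 were measured. Of these 4 were higher and 2 lower, and 146 did not pass, where 1.25% of all genes were higher and 2.73% lower. The median difference of the 152 was -0.019. Among 31 measured folding enzymes, 30 genes of targeting, translocation and glycosylation and 27 sensors, proteases and transcription factors, limma called 0, with 8, 6 and 8 at an unadjusted p under 0.05, against 18.6% of all genes. Eif2ak3, the PERK gene, was at -0.08 (adjusted p = 0.45), and Mbtps1, a protease gene whose product frees ATF6, at -0.07 (adjusted p = 0.32).

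Among 36 measured ATF4 targets 3 were higher and 1 lower, beside the same 1.25% and 2.73% of all genes. Cth, an enzyme of cysteine synthesis, ran over 6.14, 6.24 and 6.53 in sleep-deprived mice and 5.80, 6.07 and 6.14 in undisturbed mice (0.27, SE 0.065, adjusted p = 0.019). Ddit4, an inhibitor of mTOR signalling that glucocorticoids also induce, ran over 9.88, 10.16 and 10.50 in sleep-deprived mice and 9.65, 9.84 and 10.02 in undisturbed mice (0.30, SE 0.074, adjusted p = 0.023). For both genes the groups overlapped at their edges. Both calls held without any 1 array, but with unequal variances neither passed (adjusted p = 0.056 for Cth and 0.095 for Ddit4). Cth also lost its call in the arrays with low Ttr (adjusted p = 0.069), and Ddit4 in the exact rank-sum test (adjusted p = 0.072).

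The other 4 calls were narrow. The cell cycle inhibitor gene Cdkn1a was at 0.23 (adjusted p = 0.048), the ubiquitin-conjugating enzyme gene Ube2g2 at 0.15 (adjusted p = 0.047), the lipoprotein receptor gene Vldlr at -0.21 (adjusted p = 0.049) and the ER lectin gene Erlec1 at -0.16 (adjusted p = 0.044). Without 1 array these calls were lost in 14, 12, 13 and 14 of 17 cases (adjusted p up to 0.088, 0.096, 0.0997 and 0.086). With a gene's probe sets averaged, none of the 4 passed (adjusted p of 0.097 to 0.24).

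Without the 5 arrays that were high in Ttr, 3 of the 42 genes passed, against 0.269% of all genes called higher in those 12 arrays. The 3 were Hspa5 (0.46, SE 0.073, adjusted p = 0.0080), Creld2 (0.33, SE 0.059, adjusted p = 0.012) and Pdia6 (0.30, SE 0.062, adjusted p = 0.035). Manf (0.37, adjusted p = 0.081), Calr (0.17, adjusted p = 0.38) and Xbp1 (0.23, adjusted p = 0.16) did not pass in those 5 sleep-deprived and 7 undisturbed arrays. With the mean of the choroid plexus markers as a covariate in all 17 arrays, Hspa5 (0.46), Creld2 (0.35), Pdia6 (0.30), Manf (0.35) and Xbp1 (0.20) passed, and Calr did not (0.22, adjusted p = 0.0504).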

How the data were processed

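Hippocampal RNA of 8 sleep-deprived and 9 undisturbed mice was measured on 17 Affymetrix arrays, 1 animal per array, and groups came from the sample titles. The authors deposited log2 signals for 45101 probe sets, made, per the submitters' processing notes, with RMA and affy. Their range set the log base, and for the versions and order of steps the sources used here give nothing. RMA equalises the arrays' distributions at the level of single probes, so a shift shared by most genes cannot be seen. The deposited probe set values were not fully equal, with array medians of 6.13 to 6.22. The number of arrays limits the precision.

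After removal of 64 control probe sets, 34945 of 45037 carried 1 gene symbol in the platform annotation (932 several, 9160 none). They gave 18193 genes, fitted with limma 3.58.1 (R 4.3.3; lmFit, eBayes) as a model of group means, with Benjamini-Hochberg adjustment over all genes and a threshold of 0.05. Probe sets, and differences between probe sets of a gene, were fitted likewise. The fit was tested on simulated data. Correlations used exact permutation tests, two-sided. Members, gene lists, motifs and tests were chosen with earlier results of these data known. All 42 members are named, with lowest, median and highest values for those past the threshold, the 3 of each role with the smallest p and a few fixed by name. Of the other pathway genes, those past the threshold and Eif2ak3 and Mbtps1 are named. Alternatives covered scaling, filters, probe set choice, variance models, tests, covariates, a replicate block and each array left out. No label pairs animals of equal replicate number, and the main fit did not pair them. After removal of group means, 3 of the 8 such pairs correlated above 0.1 (range -0.16 to 0.39). Whether equal numbers share a batch was not tested. Promoter sequences are from RefSeq, and no protein sequences were used.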

Additional observations from a re-analysis of the deposited data

Results flagged for a closer look

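In 5 of 84 sets of values, 42 genes in each group, 1 animal lay far from the others of its group by Dixon's criterion, which chance meets in about 1 of 20. Sleep-deprived replicate 2 had 11.16 for Canx, where the next lowest was 11.39. Sleep-deprived replicate 6 had 7.96 for Edem1, where the next was 8.06, and sleep-deprived replicate 5 had 7.59 for Ern1, where the next was 7.82. Undisturbed replicate 2 had 9.50 for Manf, where the next lowest was 9.83, and without it Manf kept its call. Undisturbed replicate 1 had 10.03 for Creld1, where the next highest was 9.85.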

How the results depend on the processing

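Over 34 alternative settings, 1 of them chosen after seeing the data, 0 of the 42 genes was called lower in any, and Hspa5, Creld2 and Pdia6 kept their calls in all. The count of higher genes of the list ran from 3 to 9, and without 1 array from 5 to 6 (chaperones 4 to 5). It was 8 after quantile normalization, 9 after cyclic loess, 5 after median centring and 4 at an adjusted p under 0.01, by exact rank sums and with unequal variances. With only the arrays under a Ttr signal of 13, the setting chosen after seeing the data, it was 3, all chaperones, and Xbp1 was not called. Xbp1 was also not called in the unequal-variance and exact rank-sum tests (adjusted p = 0.056 and 0.059), at 0.01 or without sleep-deprived replicate 5. In these settings 0 of the sensors and branch transcription factors were called. Cyclic loess called 1 ATF4 arm gene, Atf4. Manf lost its call in 1 setting, the arrays with low Ttr, and Calr in 8 besides those without 1 array. Vldlr was at 0.0097 through its most variable probe set (adjusted p = 0.97), reversed from -0.21. The cause of these changes was not tested.

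Over all genes 227 were higher and 496 lower (31.4% higher). The counts were 129 and 313 adjusted over all probe sets, 143 and 324 in the unequal-variance test, 66 and 145 at 0.01, and 49 and 64 in the arrays with low Ttr, where fewer samples were tested. Median centring gave 142 and 621 (18.6% higher), quantile normalization 336 and 390 (46.3%) and cyclic loess 341 and 432 (44.1%). Without 1 array 150 to 236 were higher, with the fewest without undisturbed replicate 8, and 307 to 581 lower, with 307 without undisturbed replicate 4 and 312 without sleep-deprived replicate 5. With the replicate block 5 of the 42 genes and 241 and 672 of all genes were called, Calr being lost (adjusted p = 0.071). The median of all genes shifted by under 0.02 with each scaling. Dim probe sets, such as those of Atf3, Pdia4, Pdia5, Derl3, Trib3 and Sdf2l1, limit what could be seen.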
